A study of Macaca mulatta with 252 samples.

Results

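The cadherins and protocadherins of the macaque brain were taken as every gene whose symbol starts with CDH and a digit, or with PCDH, in the annotation of the array. The symbol had to be the only one of its probe set, and a gene with several probe sets was read from the one with the highest mean. This gave 40 genes of the 14133 measured. Of these, 20 were named CDH and 20 PCDH. They comprised 4 type I classical cadherins (CDH1, CDH3, CDH4 and CDH15), 11 type II classical cadherins, T-cadherin (CDH13), 4 other cadherins (CDH16, CDH17, CDH23 and CDH26), 2 delta-1 and 3 delta-2 protocadherins, 3 other protocadherins and 12 clustered protocadherins. Cadherins that lacked a probe set with 1 symbol, among them CDH2 (N-cadherin) and CDH6, were not analysed here.

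Cadherins are transmembrane proteins that hold cells together through calcium-dependent binding of their extracellular repeats. Classical cadherins bind mainly their own kind on the neighbouring cell and are tied to actin inside the cell by catenins. Type II cadherins also bind a restricted set of other type II cadherins, and in the developing mouse and chick brain their combinations mark nuclei, layers and the partners of particular synapses. Delta protocadherins adhere weakly and signal through their own cytoplasmic tails. The clustered protocadherins are encoded side by side and chosen differently from neuron to neuron in mice, which gives each neuron its own surface identity.

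RNA came from pieces of adult rhesus macaque brain cut out by laser, with 1 array per piece. The 225 arrays fell into 57 region groups, 54 of 4 arrays and 3 of 3 (in A1 layers 4 and 5, in M1 layer 2). Neocortex was sampled by layer in 10 areas: A1, M1 and S1 are the primary auditory, motor and somatosensory cortex, V1 and V2 the primary and secondary visual cortex, MT the middle temporal area, TE a temporal area, ACG the anterior cingulate gyrus, DLPFC the dorsolateral prefrontal and OFC the orbitofrontal cortex. The other groups were hippocampal fields CA1, CA2 and CA3, the dentate gyrus (DG), and the lateral geniculate nucleus (LGN) of the thalamus, split into its magnocellular, parvocellular and koniocellular parts. The animals were 3 males (018G, 01D150 and CR5C1) and 3 females (98C096, 99C018 and 99C039). The labels name no treatment, strain or exact age. Each region was a mixture of neurons, glia and vessels, so a lower value can mean fewer cells of a type or less RNA per cell, which cannot be told apart here.

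All values are log2 intensities unless stated, and an array gives no count from which an interval could be made. Array medians lay between 4.72 and 5.00, and the correlation of an array with its own group had a median of 0.983. The sampled layers and fields carried their defining markers: the highest mean of CUX2, a marker of upper layers, was in layer 2 of V1, that of SYT6, a marker of layer 6, in layer 6 of V1, that of RORB in layer 4 of TE, that of PROX1, a marker of dentate granule cells, in DG at 10.16, and that of TCF7L2, a marker of thalamus, in the LGN. FEZF2, a marker of layer 5, was also high in the hippocampus, with its highest mean of 10.30 in CA2. V1 and V2 stood apart from the other regions. Their poly-A control probes, which are designed for RNA added to the samples, averaged 9.99 ± 0.57 (SD) over the 32 arrays of V1. They averaged 9.83 ± 0.67 (SD) over the 20 of V2, and 8.47 to 9.33 in the other regions.

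Of the 40 genes, 31 had a mean above 4.76, the level of the median probe set. The other 9 were PCDH15, CDH19, PCDHB3, CDH1, CDH20, PCDH7, PCDHB1, PCDH12 and PCDHB16. They include PCDH15, part of the tip link of inner ear hair cells, CDH1, the E-cadherin of epithelia, and PCDH12, a protocadherin of endothelium. The means of the 31 over the 57 groups spanned a median of 2.35 log2 units, against 1.25 over the 10298 genes above the same level. In 16 of the 31 the span was at least 2 log2 units, which was so in 20.9% of those 10298 genes.

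PCDH8 had the widest span. PCDH8 is known in rat neurons as arcadlin, a delta-2 protocadherin induced by synaptic activity. Its group means ran from 3.60 ± 0.56 (SD, n = 4) in the koniocellular LGN to 12.21 ± 0.12 (SD, n = 4) in layer 2 of TE, a span of 8.60. PCDH20, which helps to place future layer 4 neurons in the mouse cortex, spanned 7.22, and CDH9, a type II cadherin needed for synapses of dentate granule cells on CA3 neurons in mice, spanned 5.84.

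Each comparison below was tested with limma over all genes whose mean exceeded the median probe set, with the animal as a block. A gene was called when its Benjamini-Hochberg adjusted p was under 0.05 and its fitted means spanned at least 1 log2 unit. For a single level, its contrast with the mean of the other levels had to reach 1 in size. Errors are standard errors of these contrasts unless SD is written. Over the 8 comparisons, 21 of the 40 genes were called at least once and 19 never. Of the 32 that entered a test this was 65.6%, against 32.6% of the 10890 genes tested in at least 1 comparison. PCDH8 and PCDH20 were called in 7 comparisons each, and CDH13 and CDH22 in 6 each. None of CDH16, CDH17, CDH23 and CDH26, which are known from kidney, intestine, hair cells and other epithelia, was called in any.

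**Figure D1:**
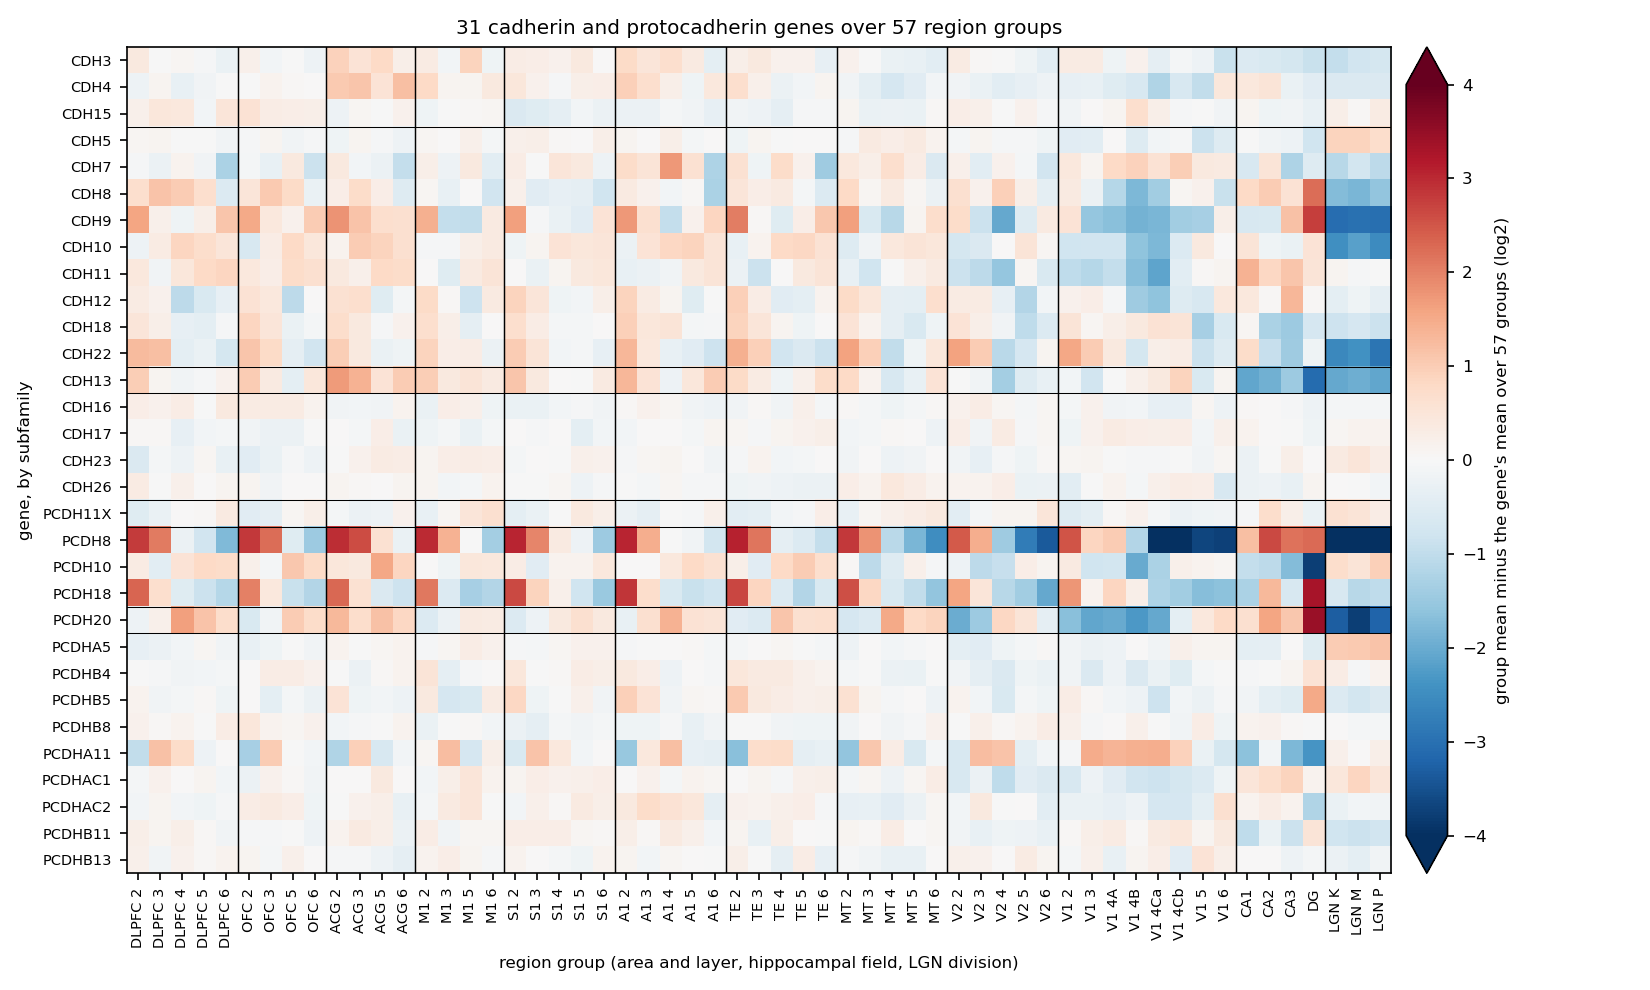
Mean log2 intensity of the 31 members above the median probe set in each of the 57 region groups, minus the gene's own mean over the groups, on a colour scale from -4 to 4. Rows are genes ordered by subfamily and columns are region groups. PCDH8, PCDH18 and CDH22 stand out in layers 2 and 3, and PCDH8, PCDH20 and CDH9 are low in the LGN.

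The first comparison asked how the genes differ among layers 2 to 6. It used the 6 areas with an undivided layer 4 (A1, DLPFC, MT, S1, TE and V2). Not every animal supplied all 6. Values were centred within each animal and area and averaged per animal, with the overall mean added back, so that 1 value stands for each of 4 animals and each layer. Of the 31 genes tested, 13 were called, against 6.61% of all genes tested. By adjusted p alone, with no minimum size, it was 22 of 31 against 62.3%. The median range of the fitted layer means was 0.68 log2 units for the 31 and 0.26 for all genes. All 3 delta-2 protocadherins (PCDH8, PCDH10 and PCDH18), 7 of 9 type II cadherins, CDH13, PCDH20 and PCDHA11 were called, and none of the 3 type I cadherins. Values per animal are given in the order 018G, 98C096, 99C018 and CR5C1.

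PCDH8 read 12.34, 11.90, 11.98 and 11.96 in layer 2 and 11.47, 10.82, 11.02 and 10.99 in layer 3. In layer 4 it read 8.48, 8.93, 8.68 and 8.56, in layer 5 7.59, 8.14, 7.98 and 8.26, and in layer 6 7.19, 7.27, 7.40 and 7.30. No 2 layers overlapped, and the level stepped down from the surface to the white matter in every animal. The layer means spanned 4.75 log2 units (limma, adjusted p = 6.84e-14). Layer 2 lay 3.29 ± 0.12 (SE) above the mean of the other layers, which is 9.77-fold.

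PCDH18, a delta-2 protocadherin that binds the reelin pathway adaptor Dab1 in mice, read 8.65, 8.90, 8.90 and 8.81 in layer 2, 7.11, 7.16, 7.39 and 7.08 in layer 3, and 5.70, 6.00, 6.08 and 5.81 in layer 4. It read 5.46, 5.37, 5.38 and 5.49 in layer 5 and 5.49, 4.98, 4.66 and 5.22 in layer 6. Layers 2, 3 and 4 did not overlap with each other or with the deep layers, and layers 5 and 6 overlapped. The range was 3.73 (limma, adjusted p = 2.62e-13), with layer 2 higher than the other layers by 2.92 ± 0.10 (SE), 7.55-fold.

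CDH9 was high at both ends of the cortex. It read 7.54, 7.85, 7.85 and 7.42 in layer 2 and 6.86, 6.93, 6.83 and 6.79 in layer 6. It read 5.26, 5.38, 5.05 and 5.33 in layer 4, with layer 3 at 5.95, 5.85, 6.11 and 6.05 and layer 5 at 6.18, 5.78, 5.93 and 6.19. Layers 3 and 5 overlapped, layer 4 lay below all others, and layers 2 and 6 lay above all others (range 2.41, limma, adjusted p = 1.56e-11).

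Other members had profiles of their own. PCDHA11, a clustered protocadherin, was lowest in layer 2, at 7.36, 7.62, 7.45 and 7.49, and highest in layer 3, at 9.89, 9.36, 9.60 and 9.55. Layer 3 stood at 1.23 ± 0.08 and layer 2 at -1.43 ± 0.08 from the mean of the other layers. CDH22, known from rat as the pituitary and brain cadherin, was higher in layer 2 by 1.51 ± 0.07. PCDH20 went the other way, with layer 4 higher by 1.07 ± 0.09 and layer 2 at -1.18 ± 0.09. CDH7 was lowest in layer 6, at -1.20 ± 0.10 from the others.

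The remaining 6 called genes had ranges between 1.01 and 1.31. The type II cadherins CDH8, CDH12 and CDH18 and T-cadherin (CDH13), which lacks a transmembrane part and is anchored by a lipid, were highest in layer 2. PCDH10, which recruits the actin-regulating WAVE complex in mouse neurons, and CDH10 were highest in layer 5. By single contrasts, 4 genes were higher in layer 2 than in the mean of the others (1.23% of all genes tested) and 2 lower (1.48%). In layer 6, 3 were lower (0.68%). The type II cadherin CDH11 missed the call with a range of 0.979.

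**Figure D2:**
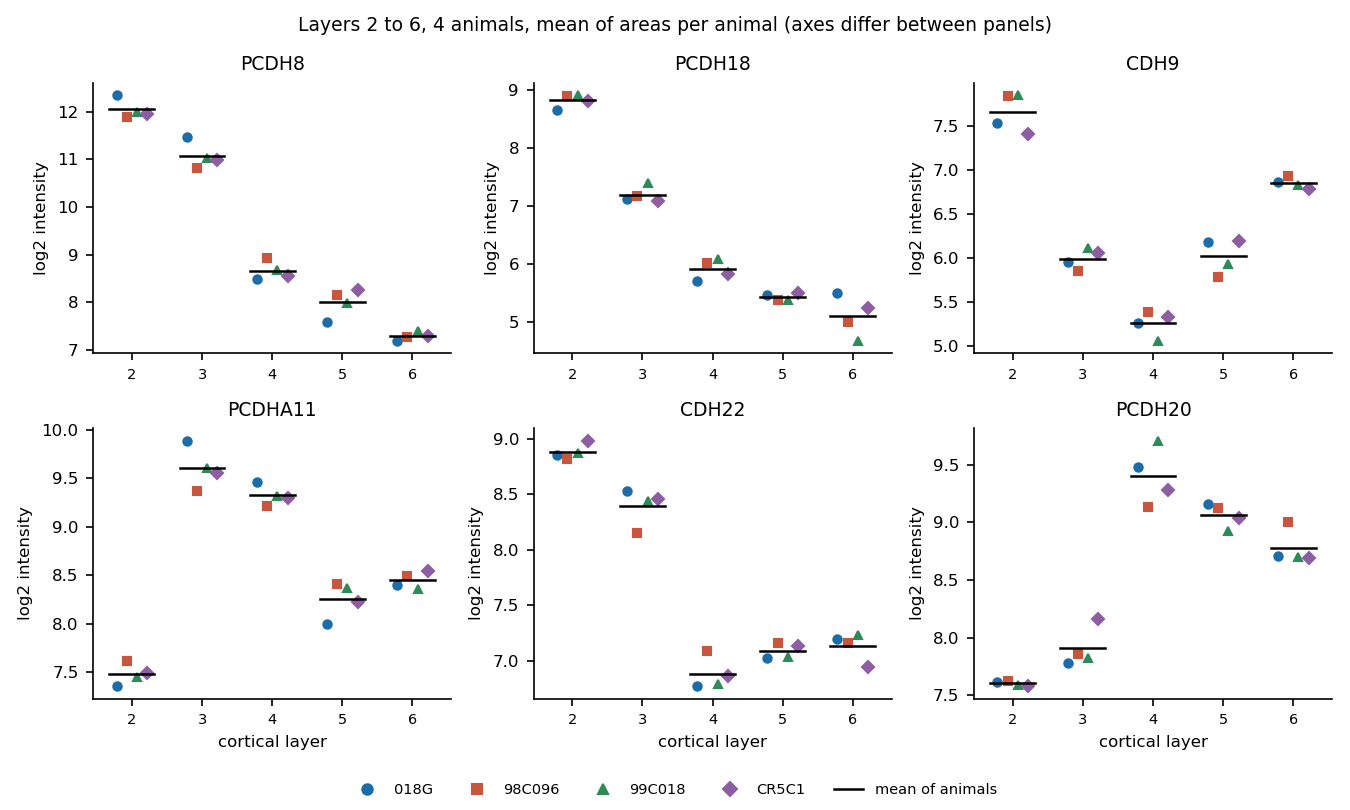
Log2 intensity of 6 members in layers 2 to 6 (x axis), centred within animal and area with the overall mean added back. Points are the 4 animals and black bars their means, and the y axes differ between panels. PCDH8 and PCDH18 step down from layer 2, CDH9 is lowest in layer 4, PCDHA11 is lowest in layer 2 and PCDH20 is highest in layer 4.

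Markers of other cell types also moved between layers. The summed level of the 4 measured markers of oligodendrocytes, of 10 listed, was 12.70 to 12.75 (log2, lowest to highest animal) in layer 2 and 13.79 to 13.89 in layer 6. The sum of 4 of 7 listed markers of pericytes and meninges, of which 2 lay above the median probe set, was 7.83 to 8.40 in layer 2 and 7.44 to 7.59 in layer 5. Their part in the layer differences was not tested. PCDHA11 and PCDH10 were no longer called when all probe sets of a gene were averaged (ranges 0.76 and 0.65). The other probe sets of PCDHA11 had means of 3.51 and 3.08, and that of PCDH10 had 4.92. These lie below or near the median probe set, so averaging them in lowers the range by itself. The PCDH20 contrast for layer 4 was lost without animal 99C018.

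The same layers were then grouped as deep (5 and 6) and upper (2 and 3) over all 10 areas in 5 animals. The animals did not supply the same areas: 01D150 had arrays of 3 (ACG, DLPFC and OFC) and the others of 8 to 10. Each value is a mean over the animal's own areas, so the spread between animals includes differences between areas. Of 31 genes, 4 were called, against 2.12% of all genes tested, and the median size of the difference was 0.32 against 0.09. By adjusted p alone 17 passed, against 31.7% of all genes. Of the 4, 3 were lower in the deep layers (0.882% of all genes tested) and 1 was higher (1.24%). In the order 018G, 01D150, 98C096, 99C018 and CR5C1, PCDH8 read 7.46, 8.01, 7.83, 7.70 and 7.78 in the deep layers and 11.78, 11.24, 11.41, 11.55 and 11.47 in the upper ones. The difference was -3.73 ± 0.12 (SE), 13.3-fold (limma, adjusted p = 1.12e-07). PCDH18 read 5.31, 5.36, 5.21, 5.10 and 5.36 against 7.76, 7.71, 7.86, 7.97 and 7.71, a difference of -2.53 ± 0.08 (5.79-fold, limma, adjusted p = 7.31e-08). Values were again centred within each animal and area, so the deep and upper values of an animal mirror each other about 1 overall mean. For both genes the deep layers were lower in all 5 animals, and the lack of overlap says no more than that.

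CDH22 read 7.04, 7.20, 7.19, 7.08 and 7.01 in the deep layers and 8.57, 8.42, 8.43, 8.53 and 8.61 in the upper ones (-1.41 ± 0.06, limma, adjusted p = 5.02e-07). PCDH20 was higher in the deep layers, at 9.0, 8.68, 9.05, 8.98 and 9.0 against 7.84, 8.15, 7.79, 7.85 and 7.84. The difference was 1.05 ± 0.10 (limma, adjusted p = 3.61e-05), with the deep layers higher in 5 of 5 animals. The call for PCDH20 fell just below the size threshold without animal 98C096 (0.99) and without V1 (0.91).

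Whether that difference is the same in every area was tested next, on 37 units of animal and area from 5 animals. For 6 of 31 genes the deep minus upper difference varied among areas by a called amount, against 2.7% of all genes tested, and the median range was 0.77 against 0.48. By adjusted p alone 9 passed, against 4.97%. These were PCDH8, PCDH20, CDH22, PCDHA11, CDH3 (P-cadherin) and CDH13.

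For PCDH8 the upper layers were higher in all 10 areas, and most so in the visual areas. The fitted difference was -2.57 in ACG, -2.95 in M1, -3.11 in A1, -3.32 in S1 and in TE, -3.61 in OFC, -3.82 in DLPFC, -4.67 in MT, -5.02 in V2 and -5.36 in V1. Per animal it was -6.03, -5.15, -5.41 and -4.94 in V1 (018G, 98C096, 99C018 and CR5C1) and -2.57, -2.63, -2.72 and -2.57 in ACG (018G, 01D150, 98C096 and 99C018). V1 and ACG did not overlap, and V1 overlapped with V2, where the values were -5.75, -4.96, -4.67 and -4.82. The range over areas was 2.79 (limma, adjusted p = 1.81e-08).

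PCDH20 was graded in the same areas with the opposite sign. Its fitted difference was 0.01 in ACG, 0.30 in A1, 0.56 in M1, 0.84 in S1, 0.92 in DLPFC, 1.12 in TE, 1.25 in OFC, 1.54 in MT, 1.75 in V2 and 2.44 in V1, a range of 2.43 (limma, adjusted p = 1.81e-08). The 4 animals read 2.42, 2.39, 2.36 and 2.80 in V1, 1.39, 1.98, 1.92 and 1.90 in V2, and -0.05, 0.04, 0.11 and -0.03 in ACG, with no overlap among the 3 areas. In ACG the deep and upper layers differed by at most 0.11 in any animal.

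The CDH22 difference ran from -0.50 in M1 to -1.94 in V1, with -0.88, -0.29 and -0.58 in the 3 animals of M1 (018G, 98C096 and CR5C1) and -2.69, -1.60, -1.64 and -2.05 in V1. These did not overlap (range 1.44, limma, adjusted p = 0.000128). PCDHA11 had a range of 1.37 (limma, adjusted p = 0.0144), CDH3 of 1.082 (0.0416) and CDH13 of 1.01 (0.023), and these 3 calls were lost without V1. They were also lost when single animals were left out (018G, 99C018 or CR5C1 for PCDHA11 and CDH13, and 98C096, 99C018 or CR5C1 for CDH3) and when all probe sets of a gene were averaged (ranges 0.45, 0.91 and 0.98). Quantile normalization ended the calls of CDH3 and CDH13, and leaving out the animal block ended that of CDH13. Within DLPFC, MT, OFC and V2 alone, areas that share a wide spread of hybridisation controls, no gene of the set was called: the range was 1.25 for PCDH8 and 0.81 for PCDH20, and neither passed the adjusted p. Within A1, ACG, M1, S1, TE and V1, with a narrow spread, 5 were called. PCDHA11 (range 1.37, limma, adjusted p = 0.058) and CDH3 (range 1.06, limma, adjusted p = 0.0914) were not among them. The 5 are therefore not all genes called over the 10 areas, and the share of all genes called there is not given. Of the 2 measured markers of excitatory neurons, 1 had a called lower deep minus upper difference in ACG and 1 a called higher one in V1 (median contrasts of the 2, -1.30 and 0.98), and their part was not tested.

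**Figure D3:**
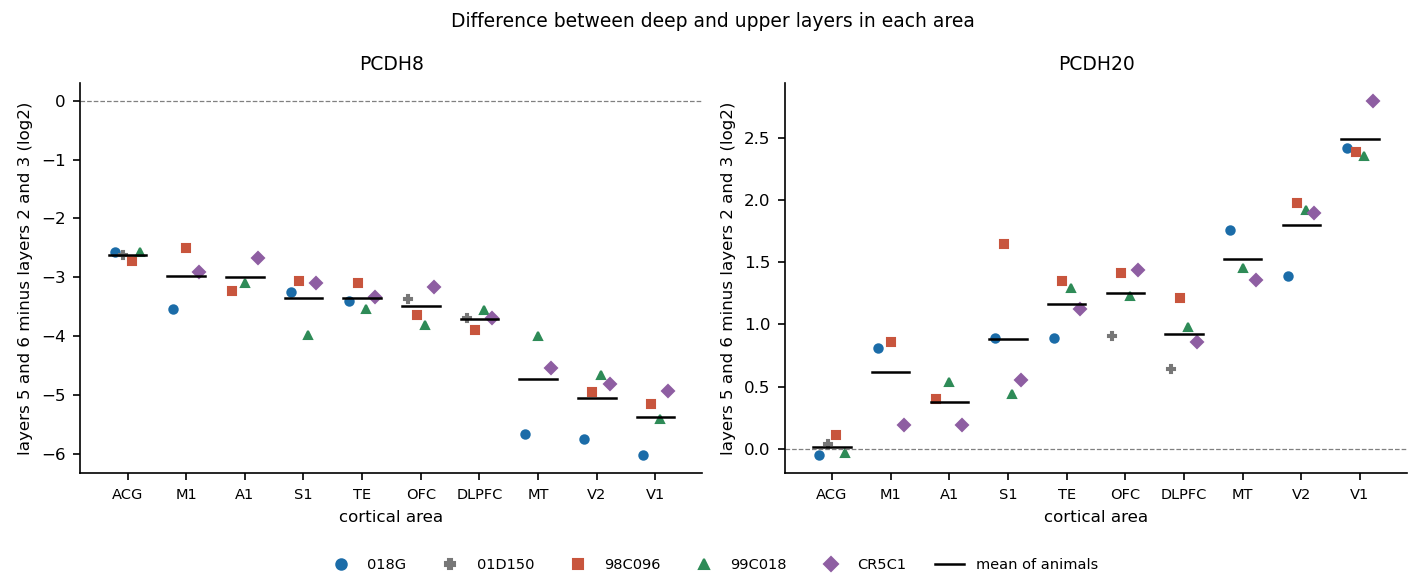
Mean of layers 5 and 6 minus mean of layers 2 and 3 (log2) of PCDH8 and PCDH20 in the 10 cortical areas. Points are animals (3 or 4 per area) and black bars their means. PCDH8 is lower in the deep layers of every area, down to -6.03 in V1, and PCDH20 is higher in the deep layers of V1 in all 4 animals and near 0 in ACG.

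Levels were then compared among the 10 areas after averaging layers 2, 3, 5 and 6 in each animal. Of 31 genes, 7 were called, against 9.19% of all genes tested, with a median range of 0.68 against 0.50. By adjusted p alone 26 passed, against 76.7% of all genes. All 7 called genes had their highest fitted mean in ACG, but for CDH11 the levels in DLPFC and OFC were close to it. The group means of CDH11 in layer 5 were 9.31 in ACG, 9.33 in DLPFC and 9.25 in OFC. PCDH8, CDH9 and CDH13 were lowest in V1, PCDH20 and CDH11 in V2, and CDH4, the R-cadherin of retina and brain, and PCDH10 in MT.

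PCDH8 read 10.64, 10.66, 10.50 and 10.70 in ACG (018G, 01D150, 98C096 and 99C018), 7.72, 8.32, 8.15 and 8.38 in V1, and 8.29, 8.38, 8.89 and 8.74 in V2 (018G, 98C096, 99C018 and CR5C1). ACG lay above every unit of the other areas, and V1 and V2 overlapped with each other. ACG was higher than the mean of the other areas by 1.16 ± 0.10 (SE), 2.23-fold, while V1 stood at -1.65 ± 0.10 and V2 at -1.17 ± 0.10 (range 2.53, limma, adjusted p = 1.46e-13).

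PCDH20 read 9.32, 9.36, 9.19 and 9.46 in ACG, 7.52, 7.58, 7.89 and 7.79 in V1, and 7.38, 7.53, 7.52 and 7.59 in V2. ACG lay above all other areas and V1 and V2 below them (range 1.80, limma, adjusted p = 3.2e-09). CDH9 read 6.90, 7.24, 7.17 and 7.28 in ACG and 5.33, 5.37, 5.74 and 5.85 in V1. Here ACG overlapped with A1 and TE, and V1 overlapped with V2, which read 6.07, 5.63, 6.11 and 6.30 (range 1.57, limma, adjusted p = 1.16e-10). CDH13 had a range of 1.49, CDH4 of 1.33, CDH11 of 1.17 and PCDH10 of 1.05. The call of PCDH10 was lost in 5 of the alternatives: with the control set as a block (0.88), within the narrow (0.93) or the wide (0.67) control set alone, with all probe sets averaged (0.52) and without ACG (0.64). That of CDH4 was lost without ACG (0.79) and in the wide set (0.37), and those of CDH9 and CDH13 in the wide set (0.83 and 0.56).

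By single contrasts, CDH9 stood at -1.10 ± 0.09 in V1, 2 genes were lower in V2 (PCDH8 and, at -1.01, PCDH20; 0.465% of all genes tested) and 1 was higher in ACG (PCDH8; 0.718%). The ACG contrast of PCDH8 fell below the size threshold without V1 (0.98) and without V1 and V2 (0.82). The V2 contrast of PCDH8 did so in the wide control set (-0.93). That of PCDH20 did so with quantile normalization (-0.90), without animal 018G or 98C096 (-0.98 each) and without ACG (-0.90). V1 and V2 are the areas with the high poly-A controls described above. V1 also had the lowest summed level of microglial markers, at 8.61 to 8.90 over animals for 7 measured markers, against 8.93 to 9.98 in the other areas. The sum of the 4 markers of pericytes and meninges was 6.65 to 7.21 in V1, 7.14 to 7.47 in V2 and 7.64 to 8.40 elsewhere. The 2 measured markers of excitatory neurons summed to 9.24 to 9.76 in ACG, 8.34 to 8.77 in V1, 8.29 to 8.47 in V2 and 8.39 to 9.55 elsewhere. Oligodendrocyte markers summed to 12.66 to 13.09 in ACG and 12.82 to 13.86 in the other areas, and 3 of the 4 were called lower in ACG. The part of these in the area differences was not tested. With the poly-A level of each unit in the model 7 genes were called, but the V1 contrast of CDH9 shrank to -0.78. Without V1 and V2, 3 genes were called and CDH9, CDH13, CDH11 and PCDH20 were not, with ranges of 0.89, 0.97, 0.67 and 0.92. The share of all genes called is not given for either fit, so the counts cannot be set against it.

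Within V1, layer 4 was divided into 4A, 4B, 4Ca and 4Cb, which gave 8 layers in 4 animals. Of 32 genes tested, 15 were called, against 14.7% of all genes tested, and the median range was 1.17 against 0.67. All 15 with an adjusted p under 0.05 also reached the size threshold, while 25.7% of all genes passed by adjusted p alone. They were 7 type II cadherins (CDH8, CDH9, CDH10, CDH11, CDH12, CDH18 and CDH22), CDH4, CDH13, PCDH8, PCDH10, PCDH18, PCDH20, PCDHA11 and PCDHB5.

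PCDH8 fell across layer 4 itself. It read 11.58, 11.70, 11.67 and 11.69 in layer 2 (018G, 98C096, 99C018 and CR5C1), 9.89, 10.09, 10.03 and 10.01 in layer 3 and 10.12, 10.15, 10.12 and 10.28 in layer 4A. Layer 4B was intermediate, at 7.52, 8.52, 7.17 and 8.62. Below it, 4Ca read 4.75, 5.53, 4.47 and 5.03, 4Cb 4.38, 6.05, 5.25 and 4.89, layer 5 4.06, 6.26, 5.31 and 6.30, and layer 6 5.35, 5.22, 5.58 and 5.51.

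The 4 layers from 4Ca down overlapped with each other and with no layer above them. The fitted means of PCDH8 spanned 6.71 (limma, adjusted p = 2.06e-15), and layer 2 was 4.64 ± 0.23 (SE) above the mean of the other layers, 24.9-fold. The level at the base was near that of the median probe set, so the span could be compressed there.

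PCDH18 had its highest values in layer 2 (8.04, 8.43, 8.24 and 7.94) and layer 4A (7.53, 7.34, 7.14 and 7.0), with layer 3 between 6.14 and 6.96. It read 4.61, 3.76, 4.66 and 5.79 in layer 5 and 5.15, 4.35, 5.15 and 4.38 in layer 6. Layer 2 lay above all other layers, and 4Ca to 6 overlapped (range 3.46, limma, adjusted p = 2.95e-08).

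PCDH20 rose below layer 4Ca. It read 7.62, 8.09, 8.28 and 7.80 in 4Cb, 8.25, 8.54, 8.99 and 9.18 in layer 5 and 9.20, 9.0, 9.15 and 9.20 in layer 6, while 4Ca read 6.27, 5.52, 6.63 and 6.69. Layers 4Cb, 5 and 6 lay above the layers over them in all animals, and layers 5 and 6 overlapped. The range was 3.11 (limma, adjusted p = 2.02e-08), and layer 6 was higher than the mean of the others by 2.25 ± 0.25 (SE), 4.77-fold.

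The other called genes picked out different layers of V1. CDH9 was higher in layer 2 (1.87 ± 0.27) and layer 6 (1.54 ± 0.27), as in the other areas. CDH22 was higher in layer 2 (1.58 ± 0.16) and lower in layer 5 (-1.20 ± 0.16), and CDH18 was lower in layer 5 (-1.58 ± 0.15). CDH10, CDH11 and CDH12 shared their lowest level in 4Ca, at -1.22 ± 0.16, -1.40 ± 0.21 and -1.35 ± 0.24.

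Their highest layers differed, with CDH10 higher in layer 5 (1.29 ± 0.16), CDH11 in layer 6 (1.14 ± 0.21) and CDH12 highest there too, at a fitted mean of 9.20. CDH8 and PCDH10 were lowest in 4B (-1.37 ± 0.25 and -1.71 ± 0.29). CDH13 was highest in 4Cb (1.01 ± 0.16), CDH4 in layer 6 (1.11 ± 0.24), and PCDHA11 was lowest in layer 6 (-1.62 ± 0.20). PCDHB5, a clustered protocadherin, had the smallest called range, 1.11 (limma, adjusted p = 0.0351).

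In counts, 6 genes were higher in layer 2 (1.74% of all genes tested), 5 lower in 4B (1.3%), 5 lower in 4Ca (1.97%), and 5 higher in layer 6 (1.71%). Layer 4B, where 5 were lower, also had the highest poly-A controls of V1, 10.61, against 9.47 in 4Cb. With the poly-A level in the model 14 genes were called, and the share of all genes called in that fit is not given. When all probe sets of a gene were averaged, the layer 6 contrast of PCDHA11 shrank to -0.66, the 4B contrast of PCDH10 to -0.82 and the layer 6 contrast of PCDH18 to -0.91, all below the size threshold. Other losses, by size or adjusted p, touch the counts above. In 4B, PCDH20 was lost without animal 99C018 or CR5C1, and CDH12 without 99C018 or with quantile normalization. CDH22 in 4B was lost with quantile normalization, without 018G or with the poly-A level in the model. PCDH20 in 4Ca was lost with quantile normalization or without 98C096. PCDH10 in layer 2 was lost without 98C096, 99C018 or CR5C1, with the poly-A level or with averaged probe sets.

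**Figure D4:**
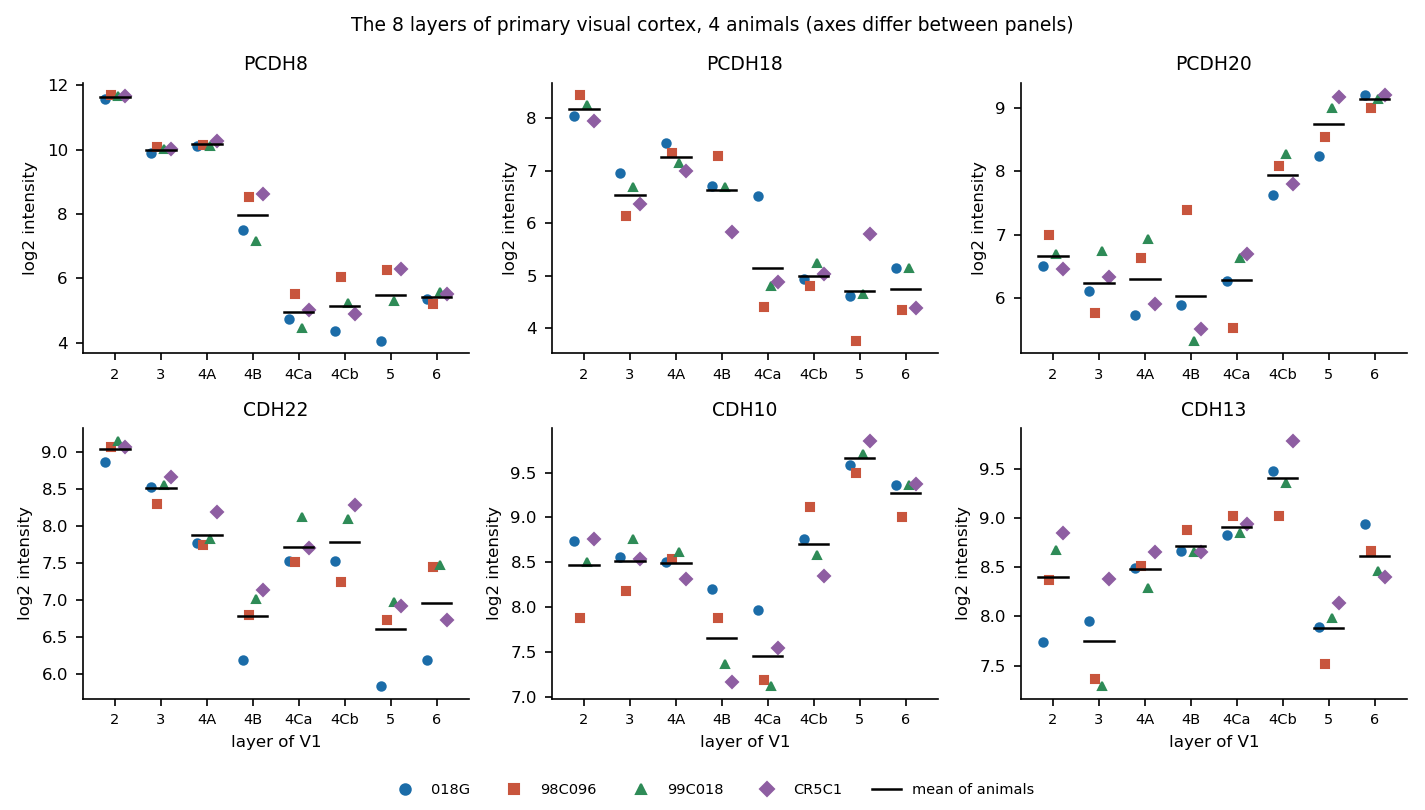
Log2 intensity of 6 members in the 8 layers of V1, from layer 2 to layer 6 (x axis). Points are the 4 animals and black bars their means, and the y axes differ between panels. PCDH8 drops from about layer 4A to 4Ca, PCDH20 is higher from 4Cb to layer 6, and CDH10 is highest in layer 5.

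In the hippocampus, CA1, CA2, CA3 and DG were compared in 4 animals. Of 31 genes, 15 were called, against 19.2% of all genes tested, with a median range of 0.97 against 0.50. By adjusted p alone 24 passed, against 64.2%. They were 6 type II cadherins (CDH7, CDH8, CDH9, CDH12, CDH18 and CDH22), CDH13, the 3 delta-2 protocadherins, PCDH20 and 4 clustered protocadherins (PCDHA11, PCDHAC2, PCDHB5 and PCDHB11). In DG 6 genes were higher than in the mean of the CA fields (5.42% of all genes tested) and 4 lower (4.83%).

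PCDH18 read 9.56, 9.60, 9.83 and 9.84 in DG (018G, 98C096, 99C018 and CR5C1), 6.94, 7.50, 7.98 and 8.36 in CA2, 5.90, 5.61, 4.67 and 6.85 in CA3 and 5.46, 5.03, 5.09 and 4.99 in CA1. DG lay above all other fields, CA2 above CA1 and CA3, and CA1 and CA3 overlapped. DG was higher than the mean of the other fields by 3.51 ± 0.26 (SE), 11.4-fold (range 4.56, limma, adjusted p = 6.85e-08).

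CDH9, whose mouse counterpart acts at the synapse between dentate granule cells and CA3 neurons, was highest in those same fields. It read 8.98, 8.75, 9.10 and 8.68 in DG and 7.28, 7.12, 7.59 and 7.08 in CA3, against 5.68, 5.76, 5.21 and 5.11 in CA1 and 5.58, 5.17, 5.93 and 5.25 in CA2. DG lay above CA3, CA3 above CA1 and CA2, and the last 2 overlapped. DG was higher by 2.81 ± 0.12 (SE), 7.03-fold (range 3.44, limma, adjusted p = 4.37e-10).

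PCDH10 was lowest in DG, where it read 5.06, 4.71, 5.45 and 5.29, below every value of CA1 (8.13, 7.51, 8.08 and 8.0), CA2 (7.37, 8.12, 8.15 and 7.80) and CA3 (6.77, 7.30, 6.64 and 7.90). The 3 CA fields overlapped. DG stood at -2.52 ± 0.20 (SE) from the others, 5.74-fold lower (range 2.81, limma, adjusted p = 4.79e-07).

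Among the other genes, PCDH20 was higher in DG by 2.35 ± 0.16, PCDHB5 by 1.88 ± 0.12, CDH8 by 1.45 ± 0.15 and PCDHB11 by 1.22 ± 0.15. CDH13 and PCDHAC2 were lower in DG, at -1.24 ± 0.22 and -1.39 ± 0.10. CA1 had higher CDH22 (1.57 ± 0.18) and CDH18 (1.22 ± 0.15) and lower PCDH8 (-1.14 ± 0.11).

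CA2 had higher PCDHA11 (1.83 ± 0.17) and CDH7 (1.31 ± 0.25), and CA3 higher CDH12 (1.14 ± 0.13). Within the CA fields alone 8 genes were called. PCDH10, PCDH20, PCDHB5, CDH8, CDH13 and PCDHB11 were not among them, with ranges of 0.78, 0.94, 0.35, 0.42, 0.61 and 0.77. The share of all genes called within the CA fields is not given, so the 8 cannot be set against it.

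Markers of cell types also differed among the fields. The summed level of the 2 measured markers of excitatory neurons was 8.42 to 8.96 in DG and 10.13 to 11.25 in the CA fields. DG was also lowest for microglia, at 8.60 to 8.79 against 9.14 to 9.71, and for endothelium, at 7.71 to 8.07 against 8.30 to 8.80. Markers of inhibitory neurons summed to 11.90 to 12.32 in DG and 10.01 to 10.75 in CA1, and those of oligodendrocytes to 12.34 to 12.66 in DG, 12.09 to 12.47 in CA1 and 13.06 to 13.21 in CA3. Their part in the differences between fields was not tested.

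Among the magnocellular, parvocellular and koniocellular divisions of the LGN, limma called 0 of 27 genes tested, against 0.399% of all genes tested (0 against 3.07% by adjusted p alone), and 5 had an unadjusted p under 0.05. The median range was 0.21 against 0.16. CDH22 came nearest, at 5.11, 5.39, 5.17 and 4.62 in the magnocellular and 4.57, 4.63, 4.62 and 4.41 in the parvocellular division (018G, 98C096, 99C018 and CR5C1; range 0.52, limma, adjusted p = 0.0584). PCDHAC1, a C-type clustered protocadherin, read 10.15, 9.98, 10.27 and 10.07 in the magnocellular and 9.53, 9.75, 9.80 and 9.79 in the koniocellular division (range 0.40, limma, adjusted p = 0.0888). PCDH10 read 10.12, 9.82, 9.62 and 9.85 in the parvocellular and 9.46, 9.59, 8.95 and 9.57 in the magnocellular division (range 0.46, limma, adjusted p = 0.145). The 2 divisions named overlapped narrowly for CDH22 and not at all for PCDHAC1 and PCDH10. None of the alternative settings called a gene of the set in the LGN.

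Neocortex, hippocampus and LGN were set against each other with their groups averaged within each animal. The cortical groups were not the same in every animal, with 39 to 49 cortical arrays each. Of 31 genes, 14 were called, against 18.1% of all genes tested, with a median range of 0.91 against 0.44. By adjusted p alone 26 passed, against 78.7%. In the LGN 8 genes were lower than in the mean of the other structures (6.71% of all genes tested) and 2 higher (4.7%). In the hippocampus 7 were higher (4.65%), and in neocortex 5 were higher (3.13%) and 0 lower (1.25%).

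PCDH8 read 11.31, 11.12, 11 and 11.44 in hippocampus, 8.98, 9.38, 9.22 and 9.33 in neocortex and 3.32, 4.22, 3.92 and 3.31 in the LGN (018G, 98C096, 99C018 and CR5C1). The structures did not overlap. The LGN stood at -6.53 ± 0.15 (SE) from the others (range 7.52, limma, adjusted p = 2.54e-11). The LGN values lay below the median probe set, so the size of the difference is limited by the background of the array and no fold is given.

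PCDH20 followed the same order, with 10.20, 10.09, 9.63 and 10.13 in hippocampus, 8.21, 8.41, 8.38 and 8.32 in neocortex and 4.70, 4.44, 5.69 and 4.77 in the LGN. CDH9 read 6.88, 6.70, 6.96 and 6.53, then 6.19, 6.05, 6.23 and 6.24, and in the LGN 3.18, 3.10, 3.10 and 2.91. For both genes no structure overlapped with another, and the LGN stood at -4.27 ± 0.19 and -3.40 ± 0.07. The same limit holds here, since in the LGN CDH9 lay below the median probe set and PCDH20 near it.

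CDH8, CDH10 and CDH22 were also lower in the LGN, at -2.28 ± 0.08, -2.51 ± 0.07 and -2.51 ± 0.09 from the others. CDH22 lay near the median probe set in the LGN, so the size of its difference could be limited as well. PCDH10 and PCDHA5 were higher there. PCDH10 read 9.83, 9.68, 9.34 and 9.60 in the LGN, 8.83, 8.95, 8.90 and 9.14 in neocortex and 6.83, 6.91, 7.08 and 7.25 in hippocampus, with no overlap. CDH13 was highest in neocortex, at 8.84, 8.66, 8.67 and 8.89 against 6.24, 6.14, 6.32 and 6.78 in hippocampus and 6.31, 6.50, 6.62 and 6.48 in the LGN. Neocortex lay 2.34 ± 0.09 above the others, 5.06-fold, and the other 2 structures overlapped.

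CDH5, the VE-cadherin of endothelial junctions, was highest in the LGN, at 6.11, 6.28, 6.13 and 6.08 against 5.20, 5.45, 5.28 and 5.23 in neocortex and 5.06, 5.06, 5.01 and 4.95 in hippocampus (range 1.13). The summed level of 6 endothelial markers ran the same way, at 9.18 to 9.77 in the LGN, 8.85 to 9.16 in neocortex and 8.30 to 8.46 in hippocampus, and its part in the result was not tested. The 2 measured of 5 listed markers of excitatory neurons, SLC17A7 and NEUROD6, summed to 10.09 to 10.52 in hippocampus, 8.75 to 8.97 in neocortex and 5.39 to 5.56 in the LGN, the order of PCDH8, PCDH20 and CDH9. When all probe sets of a gene were averaged, PCDHA11, PCDH18, PCDHA5 and CDH5 lost their calls (ranges 0.60, 0.97, 0.23 and 0.54).

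**Figure D5:**
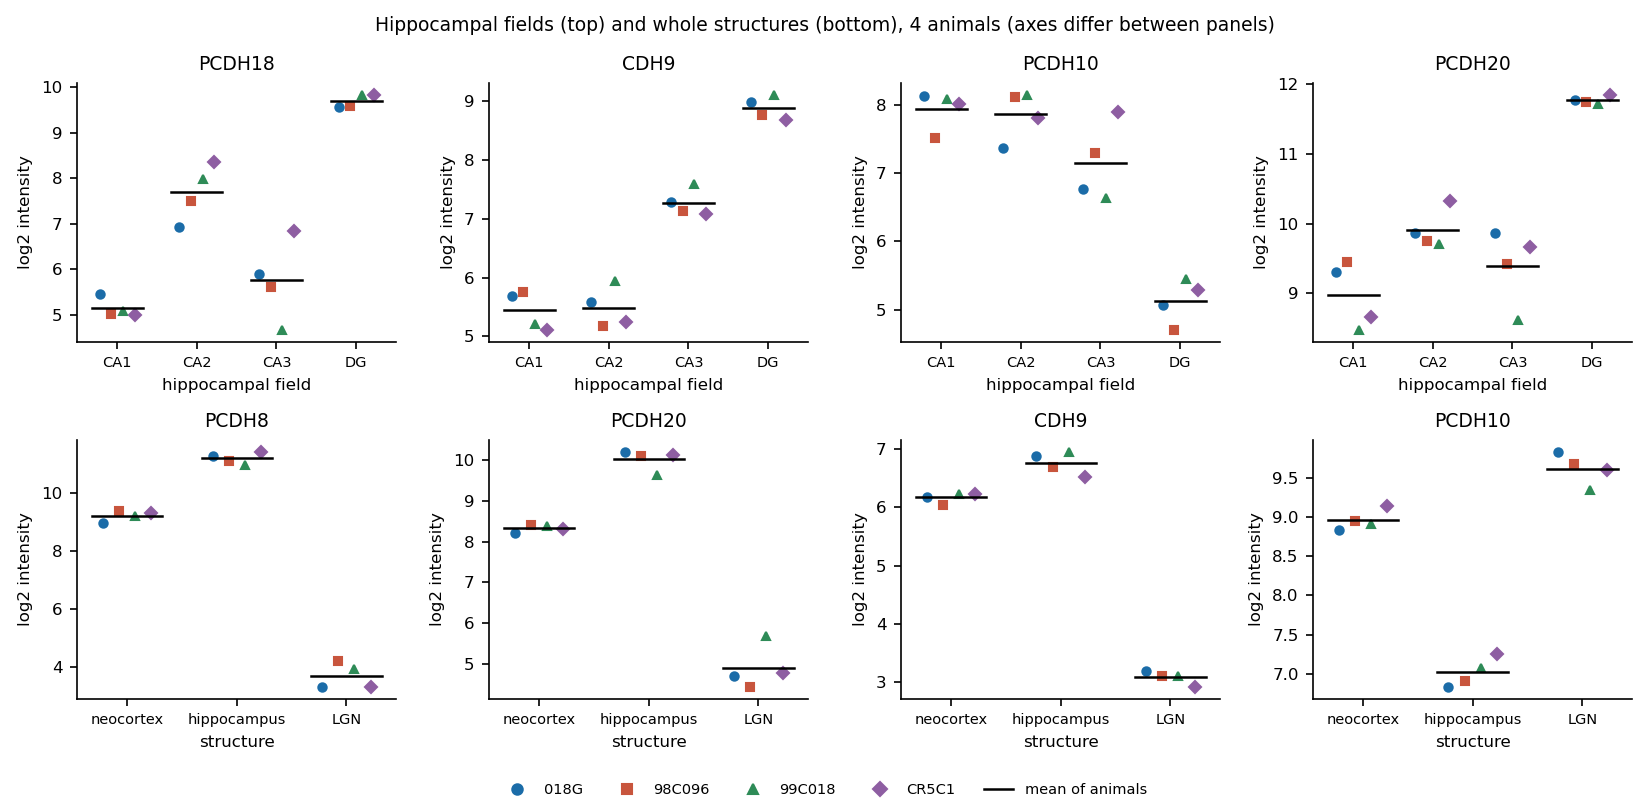
Log2 intensity of PCDH18, CDH9, PCDH10 and PCDH20 in the 4 hippocampal fields (top) and of PCDH8, PCDH20, CDH9 and PCDH10 in the 3 structures (bottom). Points are the 4 animals and black bars their means, and the y axes differ between panels. DG is highest for PCDH18, CDH9 and PCDH20 and lowest for PCDH10, and the LGN is lowest for PCDH8, PCDH20 and CDH9 and highest for PCDH10.

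The catenins that tie classical cadherins to actin were followed alongside. Of 9 listed catenins and relatives, 7 were measured. CTNNA2, the alpha-catenin of neurons, was called among layers (range 1.23, highest in layer 3 and lowest in layer 6) and among the layers of V1 (range 2.33). CTNND1 was called in V1 (range 2.21), CTNND2 in the hippocampus (range 1.04), and CTNNA1, CTNNA2, CTNND1 and PKP4 among structures. Of all genes tested, 6.61% were called among layers, 14.7% in V1, 19.2% in the hippocampus and 18.1% among structures. None of the 7 was called among areas (9.19% of all genes tested), between deep and upper layers (2.12%), by area (2.7%) or in the LGN (0.399%). With 7 genes, no calls at such shares says little about catenins.

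Of 25 listed genes of the wider cadherin superfamily, 19 were measured. FAT4, a giant cadherin that pairs with DCHS1, was called in 5 comparisons. FAT4 was higher in layer 2 than in the other layers by 2.36 ± 0.10 (SE) and in DG than in the CA fields by 3.85 ± 0.19, the layer and field where PCDH18 was highest. DSC2, a desmosomal cadherin, was called in the hippocampus (range 1.076) and among structures (range 1.63), and DCHS1 among structures (range 1.03). The list had 1 call of 12 tested among layers (6.61% of all genes), 1 of 12 between deep and upper layers (2.12%) and 1 of 11 in V1 (14.7%). It had 2 of 12 in the hippocampus (19.2%), 3 of 12 among structures (18.1%) and none in the other comparisons.

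Over the 158 arrays of layers 2, 3, 5 and 6, layer took a median of 25.2% of the sum of squares of the genes in the set, against 6.17% over all genes, and area took 16.6% against 18.9%. Layer took 84.7% for PCDH18, 79.9% for PCDH8, 72.2% for CDH22 and 66.8% for PCDHA11. Area took most for CDH4, at 49.3%, and CDH13, at 47.0%. PCDHB4 differed from all of these: the animal took 76.7%, a share reached by 15 of 10313 genes, with a median of 5.32% over all.

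PCDHB4 was lowest in animal 99C018 in 36 of the 36 groups that held an array of each of the 4 most sampled animals, by 1.42 log2 units on average below the mean of the other 3 animals. Its medians were 6.76 in 99C018, 8.52 in 98C096, 8.26 in 018G and 8.0 in CR5C1. A second probe set for PCDHB4 read lowest in the same animal in 34 of 36 groups.

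The 31 genes of the set above the median probe set were compared in pattern by Pearson's r over the 57 group means. The means share animals and arrays, and the values are given as a description. The pair most alike was CDH10 and PCDH20 (r = 0.874). PCDH8 and PCDH18 had r = 0.792, and 0.891 over the 50 cortical groups, where CDH11 and PCDH10 had 0.846. The lowest value in cortex was for CDH9 and PCDHA11, -0.726. Among the 10298 genes above the median probe set, the 3 most like PCDH8 were PTPRF (r = 0.929), SIPA1L1 (0.901) and LRATD1 (0.874). The 3 most like PCDH20 were NEXMIF (0.883), CDH10 (0.874) and CHSY3 (0.830), and the 3 most like CDH9 were SPINT2 (0.918), LOC718077 (0.886) and PLEKHA1 (0.881).

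Several genes of the set lie next to each other on the chromosome in the RefSeq gene list of the T2T-MMU8v2.0 assembly. CDH9 and CDH10 are direct neighbours and had r = 0.524 over the groups, CDH8 and CDH11 are direct neighbours with r = 0.246, and PCDHB4 and PCDHB5 are direct neighbours with r = 0.513. PCDH10 and PCDH18, with 2 listed genes between them and opposite levels in DG, had r = -0.313.

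Of the 40 genes, 16 had more than 1 probe set. The 13 other probe sets above the filter, of 10 genes, were called in 13 of 96 tests. The share of all genes called ran from 0.399% in the LGN to 19.2% in the hippocampus, so this count may lie near that of any genes. Their correlation with the chosen probe set over the groups differed from gene to gene. It was 0.834 and 0.913 for the 2 of CDH11, 0.981 for that of CDH13 and 0.947 for that of CDH3. It was 0.638 for PCDHB4 and 0.455 for PCDH10. For the other 7 it was 0.127 or less. The 3 of PCDHA5 had 0.127, 0.042 and -0.225. It was 0.00376 for CDH26, -0.0251 for CDH5, -0.157 for CDH23 and -0.268 for PCDH11X. Below the filter, the second probe set of PCDH18, at a mean of 4.00, had r = 0.803 and was also highest in DG. Those of PCDHA11, at 3.51 and 3.08, had 0.319 and 0.295. Averaging such low probe sets in lowers a range by itself, so a call lost that way need not mean that the probe sets disagree.

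PCDH11X is an X-linked delta-1 protocadherin. Its chosen probe set spanned 1.21 over the 57 groups and was called in no comparison. Its second probe set lay between 6.35 and 8.88 in the cortical groups, between 3.10 and 3.94 in the hippocampus and between 3.35 and 3.67 in the LGN. For that probe set the structures spanned 4.22 (limma, adjusted p = 8.09e-11). The alpha protocadherins (PCDHA5, PCDHA11, PCDHAC1 and PCDHAC2) share their last exons, so which of them a probe set reads is uncertain.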

How the data were processed

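The deposited values are log10 intensities from GeneChip Rhesus Macaque Genome arrays. Per the file headers, the authors computed them by RMA within each amplification batch in Matlab 2007b, then scaled each probe set on whole brain control arrays common to the batches. Per the labels' protocols, RNA was extracted with the RNeasy Micro kit and amplified in 3 batches, which the labels do not tie to arrays. Values were multiplied by 3.32 (the log2 of 10) to give log2 values, although the plan had assumed log2.

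Of 52865 probe sets, 24969 carried 1 gene symbol, 361 several and 27535 none, per the platform annotation. The set had 66 probe sets with 1 symbol, and 38 of its 40 genes had their Entrez ID in the RefSeq list with the same symbol. The members and gene lists were chosen with earlier results of these data known. Named genes are the 12 called members with the largest range in each comparison, plus those that complete a stated count, and the 3 of smallest p where none was called.

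Models were fitted over all genes above the median probe set with limma 3.58.1 (R 4.3.3, data.table version 1.17.8), animal as a fixed block and Benjamini-Hochberg adjustment, and tested on simulated data first. Animals had to supply at least 3 complete areas for the layers and 2 for the other cortical comparisons. The animal of each array was taken from its sample title. After removal of group means, arrays of 1 animal correlated with a median r of 0.174 (5367 pairs). Those of different animals correlated with a median r of -0.0495 (19500 pairs). The 27 control arrays entered no comparison. The spread of 6 cre hybridisation probe sets split the regions into 121 arrays with a narrow spread (V1, TE, S1, M1, A1, ACG) and 104 with a wide one, used as a stand-in for batches. Alternatives were the low-value filter, averaging probe sets, quantile normalization, the block, control sets, poly-A levels and leaving out each animal. Leaving out V1, V2, ACG or DG and the poly-A covariate within V1 were chosen after seeing the data.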

Additional observations from a re-analysis of the deposited data

Results flagged for a closer look

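The difference between deep and upper layers was not the same in all cortical areas for 6 genes, by limma's test of the area term over 37 units (Benjamini-Hochberg adjusted p under 0.05 and a range of at least 1 log2 unit). The fitted difference ranged over areas by 2.79 for PCDH8 and by 2.43 for PCDH20, with V1 at 1 end and ACG at the other for both. It ranged by 1.44 for CDH22, 1.37 for PCDHA11, 1.082 for CDH3 and 1.01 for CDH13.

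Single animals also stood apart. In V1 the deep minus upper difference of PCDH20 was 2.80 in animal CR5C1, and the nearest of the other 3 animals read 2.42. In V2 it was 1.39 in animal 018G, and the nearest read 1.90. These were 2 of 117 groups of values examined, and chance gives such a gap in about 1 group in 20.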

How the results depend on the processing

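The 8 counts of called genes were recomputed under each alternative. Shares over all genes are not given for the alternatives, apart from those by adjusted p alone, which stand with each comparison above. Without a minimum size, limma's adjusted p alone gave 22 genes among layers, 17 between deep and upper layers, 26 among areas, 24 among hippocampal fields and 26 among structures. Among areas, the count was 3 in the wide control set, 3 without V1 and V2, and 8 to 11 with each animal left out in turn, 11 of them without 99C018. For the deep minus upper difference by area it was 3 with all probe sets of a gene averaged, 0 in the wide control set, 3 without V1, 3 without V1 and V2, and 3 to 7 with each animal left out, the 3 being without 99C018 or CR5C1. Without DG, 8 genes were called in the hippocampus. The wide set alone and the settings without V1 or DG hold fewer units, and the cause of the other shifts was not tested. The other 90 counts stayed within 1.5 times the value reported. Leaving out the animal block, which marks the pairing by animal, gave 13, 4, 7, 5, 14, 15, 0 and 14 genes for layers, deep against upper layers, areas, the difference by area, V1 layers, hippocampus, LGN and structures. Layers and the deep-upper contrast were centred within animals, so the unblocked fit counts too many degrees of freedom there. Of the calls of single genes and contrasts, 67 were lost under at least 1 alternative, 132 losses in all, 30 of these when all probe sets were averaged, and 0 reversed. Arrays give no counts, so the number of animals limits the precision, and low levels lie near the background.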
